A study of Homo sapiens with 9 samples.

Results

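miR-34a and the miR-192, miR-194 and miR-215 group, miRNAs whose transcription p53 is known to switch on, were followed in the parental colorectal carcinoma line HCT116 and in its 2 drug-resistant sublines. The members were the rows of the deposited table carrying 7 mature miRNA names, namely hsa-miR-34a-5p, hsa-miR-34a-3p, hsa-miR-192-5p, hsa-miR-192-3p, hsa-miR-194-5p, hsa-miR-194-3p and hsa-miR-215-5p, out of 1198 mature miRNAs listed. HCT116 was sequenced as the parental line, HCT-Oxa-c (labelled HCT_Oxa) as the subline resistant to oxaliplatin, a platinum compound that crosslinks DNA, and HCT-FU-c (labelled HCT_FU) as the subline resistant to 5-fluorouracil (5-FU), an inhibitor of thymidylate synthase. Both sublines came from HCT116 by unbroken exposure to rising drug concentrations, so that each resistance is represented by 1 selected population; whether drug was present when RNA was taken is not given in the sources used here. Each line had 3 biological replicates, cultured cells read by small RNA sequencing, and the 3 lines share the HCT116 genetic background, which is known for wild-type p53. These data hold no measurement of p53 itself, so its status and activity in the sublines were not tested.

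p53 is a transcription factor that is stabilised by DNA damage, the kind of stress both drugs cause, and miR-34a is among its best known miRNA targets. miR-34a lowers cell cycle and survival proteins, and the sister miRNAs miR-192 and miR-215 are known to slow the cell cycle. miR-192, miR-194 and miR-215 are also typical of intestinal epithelium. A mature miRNA recognises targets mainly through its seed, bases 2 to 8 from the 5′ end, and each hairpin precursor can release a product from its 5′ arm (5p) and its 3′ arm (3p).

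The members' mature sequences are shown first because miRNAs with 1 seed share most of their predicted targets. Sequences are RefSeq's for GRCh38.p14, which matched 7 of 7 members, and the capitals mark the seed.
hsa-miR-34a-5p: uGGCAGUGucuuagcugguugu
hsa-miR-34a-3p: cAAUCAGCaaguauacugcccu
hsa-miR-192-5p: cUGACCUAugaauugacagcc
hsa-miR-215-5p: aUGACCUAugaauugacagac
hsa-miR-192-3p: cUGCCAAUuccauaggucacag
hsa-miR-194-5p: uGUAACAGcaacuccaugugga
hsa-miR-194-3p: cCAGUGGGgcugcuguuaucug

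hsa-miR-192-5p and hsa-miR-215-5p carried the same seed, UGACCUA, and matched at 19 of 21 bases. The 2 differences, counted from 1 at the 5′ end and written with the miR-192-5p base first, were C1A and C20A. The mismatch setting of the authors' alignment is not given in the sources used here, so the split of reads between these near-identical miRNAs is uncertain. The other members each had a seed of their own.

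The members come from 5 hairpins at 3 loci, all on the minus strand. MIR34A lies at chr1:9151668-9151777 in exon 2 of the long non-coding RNA gene MIR34AHG. MIR192 (chr11:64891137-64891246) and MIR194-2 (chr11:64891355-64891439) stand 108 bases apart in exon 2 of the long non-coding RNA gene MIR194-2HG. MIR215 (chr1:220117853-220117962) and MIR194-1 (chr1:220118157-220118241) stand close together within intron 12 of IARS2, a mitochondrial isoleucyl-tRNA synthetase gene that is transcribed from the opposite strand. The 2 miR-194 hairpins are shown because 1 mature miRNA leaves both, with the mature arms RefSeq annotates in capitals.
MIR194-1: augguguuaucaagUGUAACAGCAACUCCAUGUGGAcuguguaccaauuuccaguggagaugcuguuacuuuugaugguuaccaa
MIR194-2: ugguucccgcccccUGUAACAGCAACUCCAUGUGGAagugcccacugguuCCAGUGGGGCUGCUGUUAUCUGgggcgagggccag
The hsa-miR-194-5p arm is identical in both, so its count pools the miR-215 locus on chromosome 1 and the miR-192 locus on chromosome 11, whereas miR-192-5p and miR-215-5p each report 1 locus.

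Libraries held 856383 to 2207538 miRNA counts, of which 39.98% to 57.11% were miR-21-5p, and 367 of 1198 miRNAs passed the filter on low counts. All 5 epithelial markers of the miR-200 family were detected in every library, at a summed 19420 to 25920 CPM (the count scaled to a common library size with edgeR's trimmed mean of M values, TMM). The replicate 3 library of each line stood apart. It held 86, 70 and 246 counts of the red-cell miRNA miR-451a in HCT116, HCT-FU-c and HCT-Oxa-c, against 0 to 2 elsewhere, and 45, 20 and 45 counts of the liver miRNA miR-122-5p, against 0 to 7 elsewhere. The other 4 blood-cell markers had 0 to 13 counts, the endothelial marker miR-126-3p stood at 432.2 to 980.9 CPM in the 9 libraries, and the part of these RNAs in the members' values was not tested. Libraries of the same replicate number correlated in their deviations from the line means, as did replicates 1 and 2 with each other, while replicate 3 went against both. Fits with the replicate number as a block are given beside each result whose call they change.

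Members made up a small share of each library, 0.0262% to 0.0281% of counts in HCT116, 0.0243% to 0.0286% for HCT-Oxa-c and 0.0371% to 0.0569% for HCT-FU-c. The HCT-FU-c range lay above the other 2, and 3 of the 7 members, miR-34a-5p, miR-194-5p and miR-192-5p, passed the filter. In HCT116 the order was miR-34a-5p, miR-194-5p, miR-192-5p, with means of 144 ± 29.2, 89.6 ± 23.7 and 41.6 ± 2.01 CPM (SD, n = 3). No library of one overlapped a library of the next in that line. By level among all miRNAs listed, miR-34a-5p ranked 111 to 129 in HCT116, 125 to 134 for HCT-Oxa-c and 94 to 111 for HCT-FU-c. In HCT-FU-c (lowest miR-34a-5p 196 CPM, highest miR-194-5p 202 CPM) and in HCT-Oxa-c (lowest 103, highest 114 CPM) the first pair of that order overlapped. miR-192-5p and miR-194-5p overlapped in HCT-Oxa-c alone, where miR-194-5p reached down to 48.3 CPM and miR-192-5p up to 70.3 CPM.

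**Figure D1:**
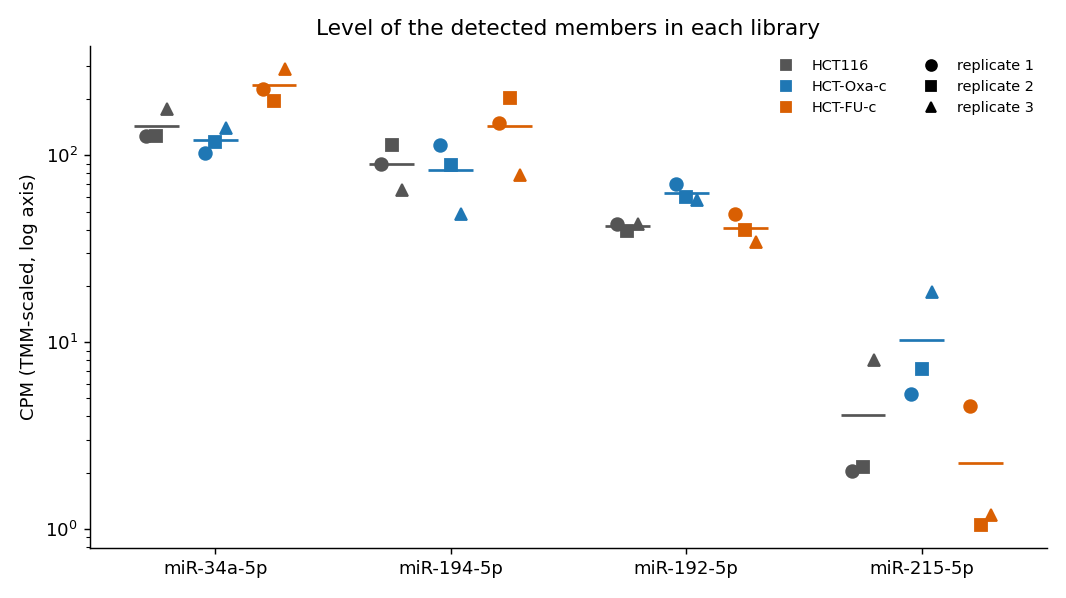
TMM-scaled CPM on a log axis for the 4 members found in every library, by line (colour) and replicate number (marker shape), with a bar at each mean of 3 libraries. miR-34a-5p lies at 196 to 291 CPM in HCT-FU-c, above the 127 to 178 CPM of HCT116 and the 103 to 140 CPM of HCT-Oxa-c, while miR-192-5p is highest in HCT-Oxa-c.

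Of the 3 members tested, hsa-miR-34a-5p had the largest difference between the 2 sublines. In HCT116 it stood at 127, 127 and 178 CPM in replicates 1, 2 and 3, from 187, 178 and 133 counts. In HCT-FU-c it stood at 225, 196 and 291 CPM, from 298, 373 and 244 counts. In HCT-Oxa-c it stood at 103, 119 and 140 CPM, from 196, 265 and 136 counts. Every HCT-FU-c library was above every HCT116 and every HCT-Oxa-c library, the HCT-Oxa-c and HCT116 libraries overlapped, and replicate 3 was the highest library in each line.

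The question of the first comparison is how the 5-FU-resistant subline differs from its parent. miR-34a-5p was 1.65-fold higher in HCT-FU-c than in HCT116 (log2 fold change 0.72, SE 0.26, 95% interval 0.13 to 1.31), which did not pass edgeR's quasi-likelihood test after Benjamini-Hochberg adjustment over all 367 miRNAs (adjusted p = 0.901). In that fit 0% of tested miRNAs were called, while 15 had an unadjusted p under 0.05 and DESeq2 called 4. With the replicate block, which called 5.45% of tested miRNAs, miR-34a-5p rose with nearly the same size and a smaller error (0.72, SE 0.18, edgeR adjusted p = 0.023). The ratio between same-numbered libraries was 1.77, 1.54 and 1.64 for replicates 1, 2 and 3. Groups failed to overlap in 8.72% of tested miRNAs in this comparison, whichever the direction.

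The blocked call in HCT-FU-c was lost when any of 6 libraries was left out, with edgeR adjusted p = 0.0653, 0.171 and 0.0668 without HCT116 replicate 1, 2 or 3, 0.183 and 0.0956 without HCT-FU-c replicate 1 or 3, and 0.108 without HCT-Oxa-c replicate 1. Its size in log2 units stayed between 0.63 and 0.82 over the 9 such fits. With replicates 1 and 2 only, without the libraries that carried miR-451a, it was 0.68 with the block (edgeR adjusted p = 0.0742).

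Against HCT116, miR-34a-5p in HCT-Oxa-c had a log2 fold change of -0.26 (SE 0.26, 95% interval -0.85 to 0.33, edgeR adjusted p = 0.912), and with the block -0.25 (SE 0.18, edgeR adjusted p = 0.454). Same-numbered libraries were at 0.809, 0.932 and 0.786 times HCT116, all 3 below 1. Set against HCT-FU-c directly, HCT-Oxa-c held 0.507 times as much miR-34a-5p (log2 fold change -0.98, SE 0.26, 95% interval -1.57 to -0.39, edgeR adjusted p = 0.0768), in a comparison that called 4.36% of tested miRNAs. With the block miR-34a-5p fell in HCT-Oxa-c relative to HCT-FU-c by 0.97 on the log2 scale (SE 0.18, edgeR adjusted p = 0.000332), where 26.4% of tested miRNAs were called. This blocked call held in 9 of 9 fits that each left out 1 library, with adjusted p from 9.86e-05 to 0.0256. It also held with replicates 1 and 2 only (-0.85, edgeR adjusted p = 0.00805). Same-numbered libraries gave ratios of 0.456, 0.605 and 0.48. All 3 HCT-Oxa-c libraries lay below all 3 HCT-FU-c libraries, as groups did without overlap for 22.9% of tested miRNAs.

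**Figure D2:**
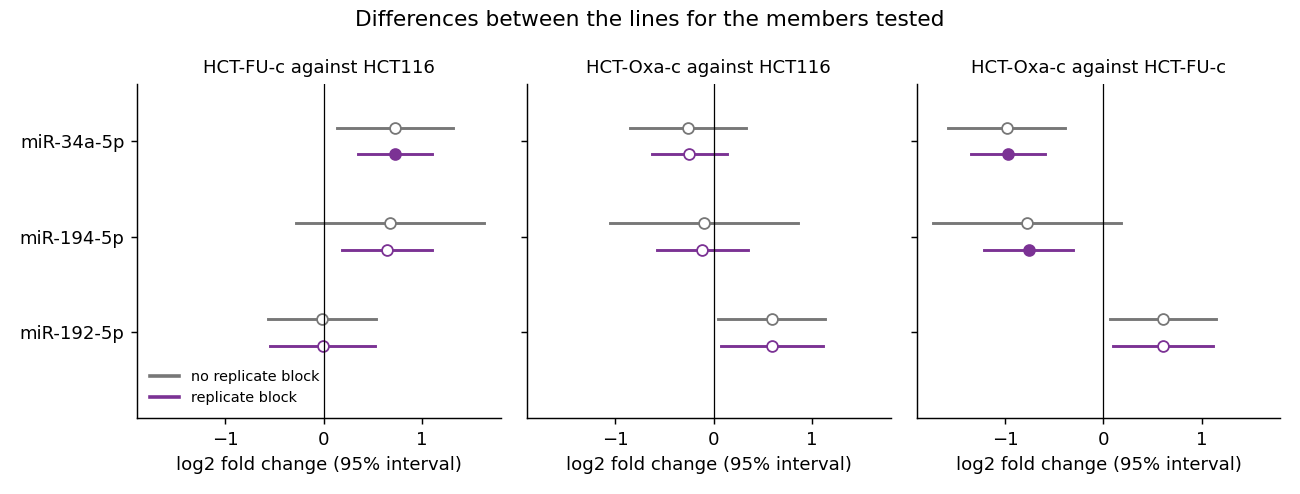
Log2 fold changes with 95% intervals for the 3 members tested in each pair of lines, without (grey) and with (purple) the replicate number as a block, with filled points for an adjusted p below 0.05. The block narrows the intervals of miR-34a-5p and miR-194-5p, leaves those of miR-192-5p about as wide, and moves none of the 9 estimates by more than a small part of its interval.

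hsa-miR-194-5p stood at 90.3, 113 and 65.5 CPM in the parental replicates 1, 2 and 3. In HCT-FU-c it stood at 148, 202 and 78.7 CPM. In HCT-Oxa-c it stood at 114, 88.6 and 48.3 CPM. The 3 lines overlapped, and replicate 3 was the lowest library in each line, the reverse of miR-34a-5p. miR-194-5p counts ran from 47 to 385 per library.

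In HCT-FU-c miR-194-5p was at 1.6-fold the HCT116 level without passing the test (log2 fold change 0.68, SE 0.42, 95% interval -0.28 to 1.63, edgeR adjusted p = 0.968), nor did it with the block (0.64, SE 0.22, edgeR adjusted p = 0.0901). Same-numbered libraries were at 1.64, 1.79 and 1.2 times. In HCT-Oxa-c against HCT116 the log2 fold change was -0.10 (SE 0.42, 95% interval -1.05 to 0.86, edgeR adjusted p = 1), and same-numbered libraries disagreed in direction, at 1.26, 0.785 and 0.737 times.

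Between the sublines miR-194-5p had a log2 fold change of -0.77 in HCT-Oxa-c relative to HCT-FU-c (SE 0.42, 95% interval -1.73 to 0.18, edgeR adjusted p = 0.466). With the replicate block it fell by 0.76 (SE 0.22, edgeR adjusted p = 0.0133), and all 3 same-numbered ratios, 0.768, 0.438 and 0.613, were below 1. That call was lost without HCT-FU-c replicate 2 (edgeR adjusted p = 0.111), HCT-Oxa-c replicate 2 (0.195) or HCT-Oxa-c replicate 3 (0.0738). With replicates 1 and 2 only, whose libraries also correlated across numbers, the blocked value was -0.71 (edgeR adjusted p = 0.0353). Without the block this difference passed in none of 17 other settings of edgeR or DESeq2, where the lowest adjusted p was 0.0513.

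hsa-miR-192-5p had its highest levels in the oxaliplatin-resistant subline. It stood at 42.8, 39.3 and 42.8 CPM in HCT116 (63, 55 and 32 counts) and at 70.3, 59.9 and 57.5 CPM in HCT-Oxa-c (134, 134 and 56 counts). In HCT-FU-c it stood at 48.4, 40 and 34.6 CPM (64, 76 and 29 counts). Every HCT-Oxa-c library lay above every library of the other lines, and HCT-FU-c overlapped HCT116.

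miR-192-5p was at 1.5-fold the HCT116 level in HCT-Oxa-c (log2 fold change 0.59, SE 0.24, 95% interval 0.05 to 1.13), which did not pass the test (edgeR adjusted p = 0.389, or 0.124 with the block). The comparison of HCT-Oxa-c with HCT116 called 2.45% of tested miRNAs, or 14.7% with the block, and groups did not overlap in 16.1%. Against HCT-FU-c the HCT-Oxa-c level was 1.52-fold (log2 fold change 0.61, SE 0.24, 95% interval 0.07 to 1.15, edgeR adjusted p = 0.222, or 0.072 with the block). With replicates 1 and 2 only the unblocked values were 0.68 against HCT116 (edgeR adjusted p = 0.142) and 0.63 against HCT-FU-c (edgeR adjusted p = 0.0986). Same-numbered libraries were at 1.64, 1.52 and 1.34 times HCT116 and at 1.45, 1.5 and 1.66 times HCT-FU-c. The estimate for HCT-FU-c against HCT116 was -0.02 (SE 0.24, 95% interval -0.56 to 0.53, edgeR adjusted p = 0.997).

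hsa-miR-215-5p, the seed sister of miR-192-5p, was near the limit of detection and did not pass the filter. It had 3, 3 and 6 counts in the HCT116 libraries, 6, 2 and 1 in those of HCT-FU-c and 10, 16 and 18 in those of HCT-Oxa-c, where a floor of 3 counts corresponds to 1.34 to 4.01 CPM. The 3 HCT-Oxa-c counts, 2 of them from the deepest libraries, were above all 6 counts of the other lines. On the CPM scale HCT-Oxa-c (5.25, 7.16 and 18.5) lay above HCT-FU-c (4.54, 1.05 and 1.19), while HCT116 (2.04, 2.14 and 8.02) overlapped HCT-Oxa-c. Refitted over all 1198 miRNAs with no filter, the HCT-Oxa-c level gave a log2 fold change of 1.44 against HCT116 (SE 0.89, edgeR adjusted p = 0.806) and 2.10 against HCT-FU-c (SE 0.91, edgeR adjusted p = 0.437), and neither passed with the block (0.469 and 0.113). An exact two-sided permutation test of 3 against 3 libraries cannot go below p = 0.1.

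Summed by seed, miR-192-5p and miR-215-5p reached 75.5, 67.1 and 76 CPM in HCT-Oxa-c, 44.8, 41.5 and 50.8 CPM in the parental line and 52.9, 41 and 35.8 CPM in HCT-FU-c. The HCT-Oxa-c sums lay above all others. If each read was counted once, this sum does not depend on how reads were split between the near-identical miRNAs. Whether reads that match both were counted once is not given in the sources used here.

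Of the 1198 miRNAs listed, 1059 had a reference sequence and could be compared by seed. Among those, the seed of miR-34a-5p, GGCAGUG, was shared by miR-449a and miR-449b-5p, miRNAs known from multiciliated cells and from E2F control. miR-34b and miR-34c had no sequence in the reference, so they were not compared and are not in the sums below. miR-34c-5p had 3, 8 and 0 counts in the HCT-FU-c libraries. miR-449a differed in the other direction from miR-34a-5p, at 22.6, 27.7 and 22.6 CPM in HCT-Oxa-c against 11.6, 13.6 and 14.7 CPM in the parental line and 13.6, 8.41 and 9.54 CPM in HCT-FU-c. Its HCT-Oxa-c libraries were all above those of both other lines. Groups did not overlap for 16.1% of tested miRNAs against HCT116 and 22.9% against HCT-FU-c. In HCT-Oxa-c the log2 fold change of miR-449a was 0.88 against HCT116 (SE 0.33, edgeR adjusted p = 0.284) and 1.21 against HCT-FU-c (SE 0.33, edgeR adjusted p = 0.0796). With the block it did not pass against HCT116 (0.89, SE 0.40, edgeR adjusted p = 0.167). Against HCT-FU-c it was higher with the block (1.22, SE 0.41, edgeR adjusted p = 0.0315), where 26.4% of tested miRNAs were called.

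Of the summed CPM of miR-34a-5p, miR-449a and miR-449b-5p, miR-34a-5p made up 94.3% to 96.8% in HCT-FU-c. It made up 90.4% to 91.7% in HCT116 and 80.7% to 86.1% in HCT-Oxa-c, and the 3 ranges did not overlap. The summed level of these miRNAs was 239, 204 and 300 CPM in HCT-FU-c. It was 139, 141 and 193.9 CPM in HCT116 and 127, 147 and 162 CPM in HCT-Oxa-c. HCT-FU-c lay above the other 2 lines in the sum as well, and those 2 overlapped.

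**Figure D3:**
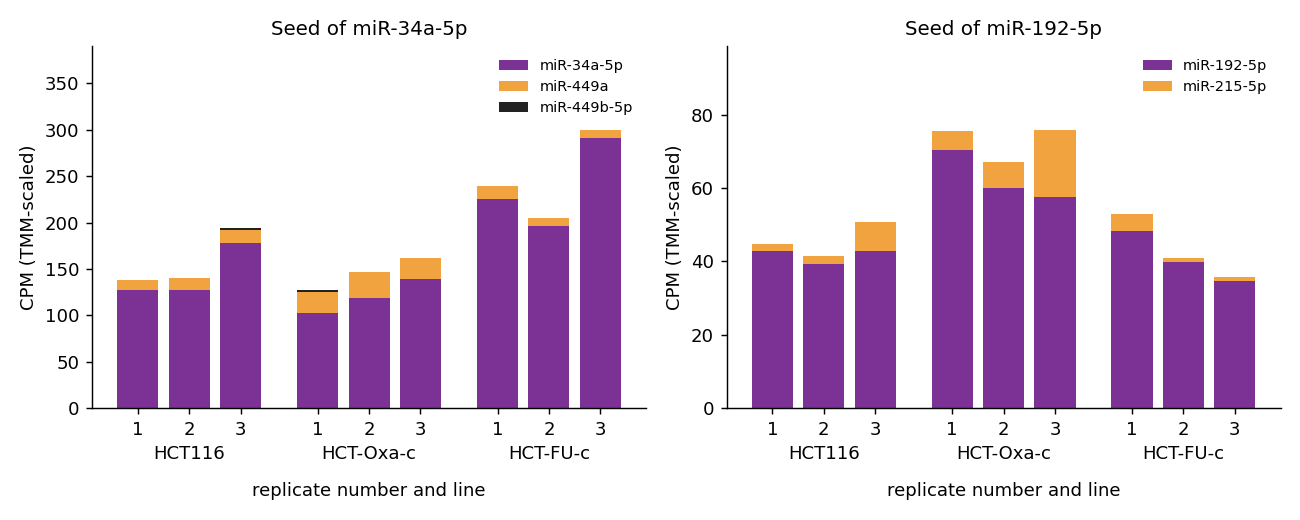
TMM-scaled CPM per library of the miRNAs with a reference sequence that carry the seed of miR-34a-5p (left) and of miR-192-5p (right). Bars are stacked, with libraries ordered by line and replicate number. miR-449a takes a larger part of the bar in HCT-Oxa-c, and miR-192-5p with miR-215-5p reaches 67.1 to 76 CPM there.

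The passenger strands were scarce. hsa-miR-34a-3p had 3 counts in each HCT116 library, 6, 8 and 1 in the HCT-FU-c libraries and 0, 2 and 5 in those of HCT-Oxa-c. The 5p arm made up 98.2% ± 0.343 of miR-34a hairpin counts in HCT116, 98.6% ± 1.87 for HCT-Oxa-c and 98.5% ± 0.94 for HCT-FU-c (SD, n = 3). Single libraries ran from 96.45% (exact Clopper-Pearson 95% interval 91.92% to 98.84%) to 100% (98.14% to 100%). A difference in arm use between the lines was not tested.

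hsa-miR-192-3p had 1 count in all, in HCT-FU-c replicate 2, against 29 to 134 counts of the 5p arm per library. hsa-miR-194-3p, which RefSeq annotates on MIR194-2 but not on MIR194-1, had 0, 0 and 1 counts in the HCT116 libraries, 0, 1 and 0 in those of HCT-FU-c and 0, 1 and 2 in those of HCT-Oxa-c. These counts are too few to compare the use of MIR194-2 between the lines from its passenger strand.

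Ratios taken inside a library do not depend on scaling, so they set the members against each other directly. The miR-194-5p to miR-192-5p ratio was 2.11, 2.87 and 1.53 in HCT116, 1.62, 1.48 and 0.839 for HCT-Oxa-c and 3.06, 5.07 and 2.28 for HCT-FU-c for replicates 1, 2 and 3. The means in that order were 2.17 ± 0.673, 1.31 ± 0.415 and 3.47 ± 1.44 (SD, n = 3). HCT-FU-c and HCT-Oxa-c did not overlap, and both overlapped HCT116. For each replicate number the order was HCT-FU-c, HCT116, HCT-Oxa-c.

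The miR-34a-5p to miR-192-5p ratio was 2.97, 3.24 and 4.16 in HCT116, 1.46, 1.98 and 2.43 for HCT-Oxa-c and 4.66, 4.91 and 8.41 for HCT-FU-c, with no overlap among the 3 lines. The miR-34a-5p to miR-194-5p ratio overlapped in all 3, at 1.13 to 2.71, 0.969 to 3.7 and 0.903 to 2.89 in HCT116, HCT-FU-c and HCT-Oxa-c. These ratios are descriptions of 3 libraries a line and were not tested.

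**Figure D4:**
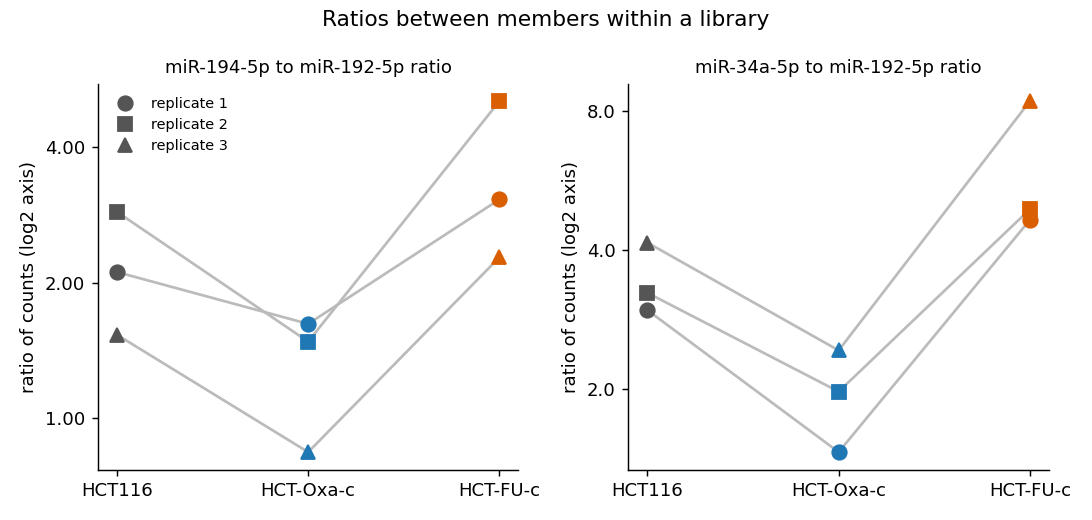
Ratio of counts within each library on a log2 axis, miR-194-5p to miR-192-5p (left) and miR-34a-5p to miR-192-5p (right), with lines joining libraries of the same replicate number. In each replicate number HCT-Oxa-c is lowest and HCT-FU-c highest, and on the right the 3 lines do not overlap.

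Over the 9 libraries, which share lines, replicate numbers and scaling, the Pearson correlation of log2(CPM + 1) was -0.678 between miR-34a-5p and miR-192-5p, 0.138 between miR-34a-5p and miR-194-5p and -0.156 between miR-192-5p and miR-194-5p. With the mean of each replicate number removed the values were -0.687, 0.811 and -0.506. miR-192-5p and miR-194-5p had negative values on both scales. MIR192 and MIR194-2 lie in 1 long non-coding RNA exon, but the miR-194-5p count also pools MIR194-1 from the miR-215 locus. The tested miRNAs with the pattern most like miR-34a-5p over 9 libraries were miR-197-3p (0.939), miR-17-5p (0.908) and miR-301a-5p (0.849). For miR-192-5p they were miR-205-5p (0.914), miR-15a-5p (0.883) and miR-449a (0.883), and for miR-194-5p let-7g-5p (0.976), miR-502-3p (0.959) and miR-199b-5p (0.948).

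After removal of the replicate number means the leading miRNAs changed. They were miR-301a-5p (0.988), miR-151b (0.938) and miR-335-3p (0.931) for miR-34a-5p. For miR-192-5p they were miR-889-3p (0.965), miR-379-5p (0.963) and miR-543 (0.953), and for miR-194-5p miR-19a-3p (0.964), let-7g-5p (0.952) and miR-30c-5p (0.948). miR-301a-5p stayed among the first 3 for miR-34a-5p and let-7g-5p for miR-194-5p.

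Other miRNAs described as activated by p53 were read from the same fits. The close relatives of miR-34a were scarce, with miR-34c-5p at 3, 8 and 0 counts and miR-34b-3p at 2, 0 and 0 counts in HCT-FU-c and both at 0 in HCT116 and HCT-Oxa-c. Of 20 listed miRNAs, 16 were in the table and 12 were tested, and edgeR called none in any of the 3 comparisons, where its calls covered 2.45% of all tested miRNAs for HCT-Oxa-c and 0% for HCT-FU-c against the parental line, and 4.36% between the sublines. With the block it called 3, 1 and 1 of the 12 in that order, against 14.7%, 5.45% and 26.4% of all tested. Their median log2 fold change was -0.07 in HCT-FU-c against HCT116 (all tested miRNAs 0.02), 0.04 in HCT-Oxa-c against HCT116 (all tested -0.01) and -0.01 between HCT-Oxa-c and HCT-FU-c (all tested -0.07). miR-34a-5p, at 0.72, and miR-194-5p, at 0.68, were above the highest of the 12 in HCT-FU-c against HCT116, which was 0.31.

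With the replicate block miR-143-3p, best known from smooth muscle and fibroblasts, fell in HCT-FU-c (log2 fold change -0.96, edgeR adjusted p = 0.0113) and in HCT-Oxa-c (-0.97, edgeR adjusted p = 0.00172) against HCT116, comparisons that share the HCT116 libraries. miR-145-5p, from the same cluster, had blocked values of -0.54 in HCT-FU-c (edgeR adjusted p = 0.131) and -0.01 in HCT-Oxa-c (edgeR adjusted p = 0.987). The summed level of these 2 smooth muscle and fibroblast markers ran from 315 to 675 CPM in HCT116, from 212 to 398 in HCT-Oxa-c and from 177 to 458 in HCT-FU-c. miR-22-3p fell in HCT-Oxa-c against HCT116 (-0.89, edgeR adjusted p = 0.00115). miR-15a-5p, which lowers the survival protein BCL2, rose with the block in HCT-Oxa-c, by 0.58 against HCT116 (edgeR adjusted p = 0.0291) and 0.69 against HCT-FU-c (edgeR adjusted p = 0.00587), the same directions as the values of miR-192-5p.

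Of 8 miRNAs described to act on the p53 messenger itself, 6 were tested and edgeR called none without the block. Of all tested miRNAs it then called 2.45% for HCT-Oxa-c and 0% for HCT-FU-c against the parental line, and 4.36% between the sublines. With the block edgeR called 1, 0 and 3 of the 6 in that order, beside 14.7%, 5.45% and 26.4% of all tested miRNAs. Of these, miR-15a-5p, which is in both lists, rose as above, and between the sublines miR-30d-5p was higher (0.67, edgeR adjusted p = 0.00173) and miR-125b-5p lower (-0.46, edgeR adjusted p = 0.0304) in the oxaliplatin-resistant one. The median log2 fold change of the 6 was 0.20 in HCT-Oxa-c against HCT116, -0.04 in HCT-FU-c against HCT116 and -0.01 between the sublines.

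**Figure D5:**
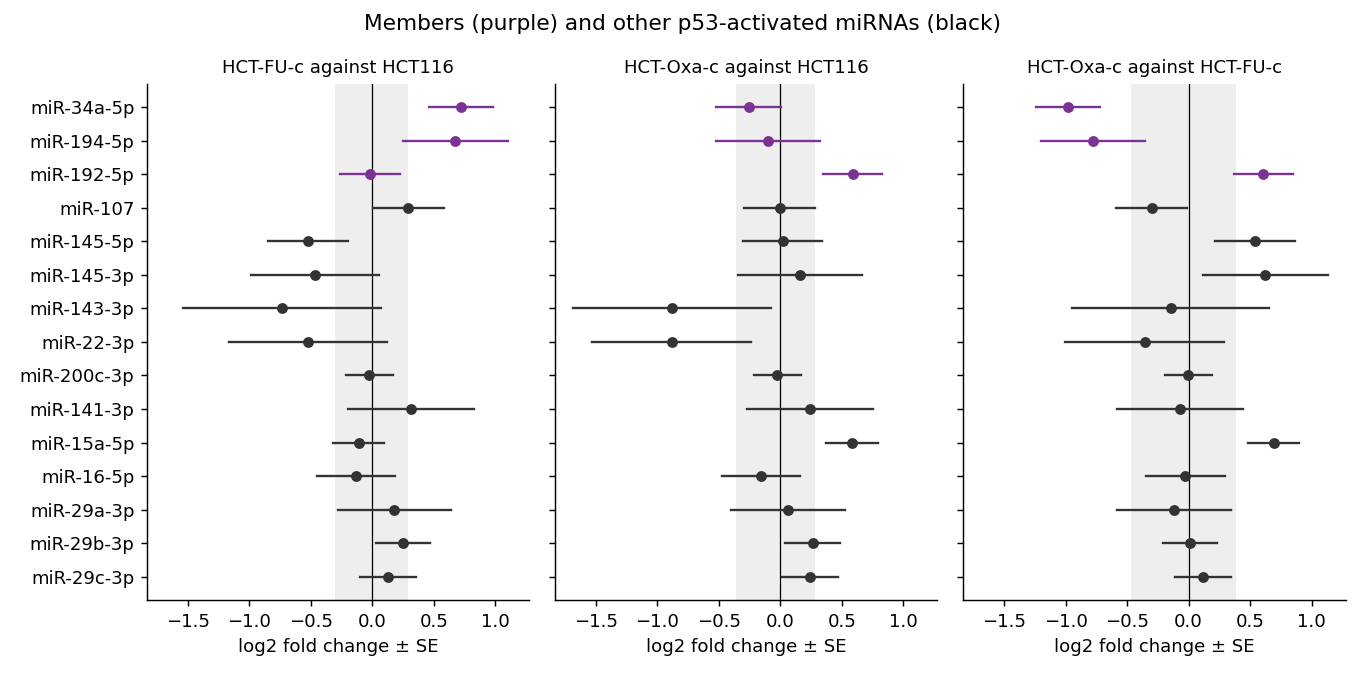
Log2 fold change ± SE without the replicate block for the 3 members tested (purple) and 12 other miRNAs described as activated by p53 (black) in each pair of lines, with the middle 50% of all 367 tested miRNAs shaded. miR-34a-5p and miR-194-5p stand above the list in HCT-FU-c against HCT116 and below it in HCT-Oxa-c against HCT-FU-c.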

How the data were processed

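Small RNA libraries (NEXTflex Small RNA-Seq v3, MiSeq) came from 9 cultures, 3 for each line. The submitters' processing notes name CASAVA 1.8, Bowtie 1.1.2, DESeq2 and GRCh38.p7; the counting step is not given in the sources used here. The authors deposited raw read counts per mature miRNA, which were used, and a second set of signal columns, the same counts divided by 1 size factor per library (all 1198 values within rounding), which were not. The files hold no molecular identifiers, and the Clopper-Pearson intervals and the floors cover counting error only. The edgeR intervals of fold changes also take in the spread between libraries.

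Counts were fitted with edgeR 4.0.16 in R 4.3.3 (TMM, filterByExpr at 10 counts in a library of median size and 15 in all, quasi-likelihood F test) over all 9 libraries with line as the factor. miRNAs with a Benjamini-Hochberg adjusted p below 0.05 over the 367 tested were called. SEs were derived from the fold change and F statistic. The fit was tested on simulated counts that held no effect of replicate number, so that test does not bear on the choice of the block. Replicate numbers come from the labels. Deviations from the line means correlated in 9 of 9 same-numbered pairs of libraries (r 0.395 to 0.754), so the number was also fitted as a block. Libraries of replicates 1 and 2 correlated as closely across numbers (0.408 to 0.607), and replicate 3 correlated negatively with both (-0.675 to -0.488), so the check separates replicate 3 and does not tell replicates 1 and 2 apart. DESeq2 1.42.0, other scalings and filters, and left-out libraries were alternatives. Members and lists were chosen with earlier results of these data known. Members are named in full, with the 3 tested miRNAs most correlated with each tested member and the listed p53 miRNAs that passed the test. Singled out after their values were seen were miR-34b-3p and miR-34c-5p; miR-449a was named for its seed. All p-values measure the spread between cultures of 1 population per line.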

Additional observations from a re-analysis of the deposited data

Results flagged for a closer look

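Differences between the sublines were called for 2 members, by the edgeR test of HCT-Oxa-c against HCT-FU-c with the replicate number as a block. That test called 26.4% of all tested miRNAs. hsa-miR-34a-5p differed by -0.97 on the log2 scale, with HCT-FU-c above HCT116 in 3 of 3 same-numbered pairs and HCT-Oxa-c below it in 3 of 3. For miR-34a-5p, HCT-Oxa-c against HCT116 did not pass the test, even with the block (edgeR adjusted p = 0.454). hsa-miR-194-5p differed by -0.76, with HCT-FU-c above HCT116 in 3 of 3 pairs and HCT-Oxa-c below it in replicates 2 and 3 but above it in replicate 1. The miR-194-5p call between the sublines was lost in 3 of 9 fits that each left out 1 library. Without the block neither member's difference between the sublines passed the adjusted threshold (edgeR adjusted p = 0.0768 and 0.466).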

How the results depend on the processing

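Over 17 other settings without a block for 9 member fold changes, 140 of 153 fits kept direction and side of the threshold, 10 changed sign and 3 crossed the threshold. Those 3 were miR-34a-5p in HCT-Oxa-c against HCT-FU-c, called with total counts (-1.13, adjusted p = 0.0247), DESeq2 (-0.91, adjusted p = 0.0114) and replicates 1 and 2 only (-0.85, adjusted p = 0.0158), each making 1 member called. Sign changes touched only estimates near 0. miR-192-5p in HCT-FU-c against HCT116 was 0.16 with total counts, 0.0052 with no filter, 0.012 with 10 counts required in every library and 0.046 with replicates 1 and 2 only, and -0.18 to 0.045 with 1 library left out. miR-194-5p in HCT-Oxa-c against HCT116 was 0.0082 with replicates 1 and 2 only and -0.34 to 0.23 with 1 library left out.

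With the replicate block, members called were 0 in HCT-Oxa-c against HCT116, 1 in HCT-FU-c against HCT116 and 2 between the sublines, and the block changed no other member's call. In the same order the block called 14.7%, 5.45% and 26.4% of all tested miRNAs. The block was further combined with other settings chosen after seeing the data. The share of all tested miRNAs called was not worked out for those combined settings, so their member calls have no such share beside them. With RLE size factors 3 members were called between the sublines (miR-192-5p at 0.68, adjusted p = 0.0409) and 1 in HCT-FU-c; with total counts 2 and 1; with replicates 1 and 2 only 2 and 0, miR-34a-5p in HCT-FU-c then having adjusted p = 0.0742. Leaving out 1 library gave 1 to 3 and 0 to 1, with miR-192-5p between the sublines called without HCT116 replicate 1 (adjusted p = 0.0489) or 2 (0.0427). In these fits miR-192-5p in HCT-FU-c was 0.16 with total counts, 0.048 with replicates 1 and 2 only and -0.11 to 0.081 with 1 library left out, and miR-194-5p in HCT-Oxa-c against HCT116 was 0.022 with replicates 1 and 2 only and -0.33 to 0.10 with 1 library left out (0.0016 to 0.10 where the sign changed).

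Over the whole table, called miRNAs numbered 9 for HCT-Oxa-c and 0 for HCT-FU-c against the parental line, and 16 between the sublines. In the same order they numbered 54, 20 and 97 with the replicate block, 23, 4 and 43 with DESeq2, 43, 13 and 67 with replicates 1 and 2 only, and 38, 15 and 62 at an unadjusted p under 0.05, where 1, 1 and 2 members passed. With no filter 16 and 1 were called in the first 2 comparisons, and with 10 counts in every library 4, 1 and 9. Leaving out 1 library gave 4 to 12, 0 and 6 to 23. The cause of these differences was not tested. Depth limits what can be said of miR-215-5p outside HCT-Oxa-c, with 1 to 6 counts a library, and of the 3p arms, with 0 to 8.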
